A study of Homo sapiens with 8 samples.

Results

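The genes described here are the TET dioxygenases TET1, TET2 and TET3, the base excision repair genes TDG, SMUG1, APEX1 and XRCC1, and the cofactor and partner genes IDH1, IDH2 and OGT. These 10 genes were chosen by name, and their array probes were found through the RefSeq transcript that each probe carries. The members had 15 probes on 9 genes, out of 34127 probes, of which 25422 were named, on 19483 genes. No probe was matched to TET3 through the RefSeq gene table, and TET3 expression was not analysed here. All 15 member probes were among the 22530 probes tested, which both clones of some group showed well above background.

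Expression was measured with Cy-3 labeled RNA on 8 one-color Agilent arrays, 1 for each of 8 stable lines of HEK293T, a human embryonic kidney line. There were 4 groups of 2 clones. The empty vector clones were #1 and #2. The lines named TET1-CDwt (#2 and #5) carried only the FLAG-tagged catalytic domain of TET1. Those named MBD-TET1-CDwt (#3 and #10) carried this domain behind the methyl-CpG-binding domain of MBD2. In MBD-TET1-CDmut (#9 and #10) an aspartate in the catalytic center of that fusion was changed to alanine. All lines, the empty vector lines included, were selected with blasticidin, and each grew from a colony that was picked and expanded. With 1 array per clone, the spread between arrays of a group holds clone and measurement variation, which cannot be told apart. It is called the spread between clones below. Empty vector and TET1-CDwt lay on slide 1 and both fusions on slide 2, so slide and construct cannot be told apart when a fusion is compared with empty vector. The comparisons that do not cross slides were TET1-CDwt against empty vector and MBD-TET1-CDwt against MBD-TET1-CDmut, and the mean of these differences is called active minus inactive. RNA was taken from whole cultures, in which fewer expressing cells and less RNA per cell cannot be told apart.

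TET enzymes are iron-dependent dioxygenases that use oxoglutarate to oxidize the methyl group of methylcytosine stepwise to hydroxymethyl-, formyl- and carboxylcytosine. The glycosylase TDG removes the formyl and carboxyl forms, and the gap is then processed by the endonuclease APEX1 and by a repair complex that the scaffold protein XRCC1 holds together, while other oxidized sites are diluted when DNA is replicated. IDH1 in the cytosol and IDH2 in mitochondria make oxoglutarate, and OGT, which attaches N-acetylglucosamine to proteins, binds TET proteins. Because the constructs add TET1 catalytic domain to cells with their own copy of this system, the levels of the endogenous genes show whether it moved along with the construct.

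As TET1 acts on methylated CpG sites, a promoter stretch of each measured TET gene is shown with each CpG in capitals. These are the 250 bases before the outermost RefSeq start of TET1 at chr10:68560087-68560336 and of TET2 at chr4:105145625-105145874, plus strand, assembly GRCh38.p14.
TET1: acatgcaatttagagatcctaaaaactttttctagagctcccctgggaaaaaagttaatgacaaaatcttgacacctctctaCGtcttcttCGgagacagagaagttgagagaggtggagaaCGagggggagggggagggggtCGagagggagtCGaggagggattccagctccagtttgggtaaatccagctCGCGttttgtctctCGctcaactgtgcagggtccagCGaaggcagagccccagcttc
TET2: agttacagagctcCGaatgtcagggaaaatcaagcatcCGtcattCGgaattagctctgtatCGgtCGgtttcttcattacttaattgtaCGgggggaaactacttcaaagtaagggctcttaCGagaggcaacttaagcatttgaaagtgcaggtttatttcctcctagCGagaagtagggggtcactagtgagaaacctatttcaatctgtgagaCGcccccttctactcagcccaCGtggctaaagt
The TET1 stretch holds 9 CpG sites and the TET2 stretch holds 10. The stretches of 250 bases before their other RefSeq starts, not printed, hold 4 and 11 sites for TET1 and 34 for TET2. Methylation of these sites was not analysed here.

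The RefSeq promoter table, credited to RefSeq and assembly GRCh38.p14, gave windows of 300 bases (250 before and 50 after each start) for 9 of the members, with SMUG1 not matched. The motif counted was CG, which reads the same on both strands. The 14 member windows held a median of 19.5 CpG sites, with a range from 6 to 45, and the median over all 35116 windows was 14. At least 20 sites were found in 7 of the 14 windows (50%) and in 41.2% of all windows. The windows of TET3, with 45 and 33 sites, and a window of TET2, with 35, held more than most. TET1 was at the other end, with 10, 6 and 11 sites in its windows. The TET1 stretch printed above is the first 250 bases of the first of these windows and holds 9 of its 10 sites. The count is a description of the reference sequence, and no measure of these cells.

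**Figure D1:**
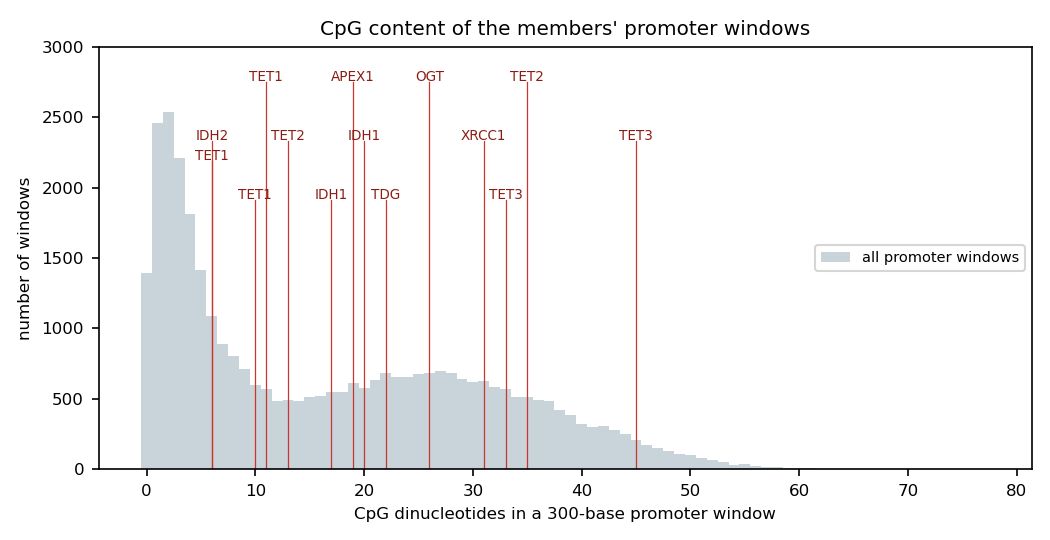
CpG dinucleotides per 300-base promoter window (x axis) against the number of windows (y axis) for all 35116 windows (gray bars), with a red line for each of the 14 member windows at its own count; the height of a line only sets its label apart. Member windows range from 6 sites (TET1, IDH2) to 45 (TET3).

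Levels are given as log2 of the processed intensity minus the array's own 75th percentile, so that 0 is the intensity of that percentile, and levels of different probes are not compared with each other. Of the 15 member probes, 14 (93.3%) were well above background on all 8 arrays, against 90.2% of all probes tested. The pooled standard deviation between clones had a median of 0.19 over the member probes and 0.25 over all probes tested. Among the members it ran from 0.096 to 1.02, with the highest values for a dim TET2 probe (1.02) and IDH2 (0.50). The median range of a member over the 8 arrays was 0.61, against 0.76 for all probes. Differences were tested with limma, adjusted over all 22530 probes (Benjamini-Hochberg), and a difference was called at an adjusted p under 0.05. The label HEK293T was checked against markers: VIM, CDH2, PAX2, LHX1 and EYA1 had a probe well above background on all 8 arrays. Of the markers of other cell types, CD3E, ALB, DCN and PECAM1 were well above background on no array, while PTPRC, APOA1, COL1A1 and CDH5 had a probe above it on all 8.

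No member probe was called in any comparison. In TET1-CDwt against empty vector, 0 of 15 member probes were called and 0.0% of all probes, and 0 members had an unadjusted p under 0.05, against 2.5% of all probes (147 higher and 417 lower). In MBD-TET1-CDwt against MBD-TET1-CDmut, 0 members were called against 0.102% of all probes, and 2 of 15 members, both lower in MBD-TET1-CDwt, had an unadjusted p under 0.05, against 6.84% (739 higher and 802 lower). For active minus inactive, 0 members were called against 0.0311%, and 0 had an unadjusted p under 0.05 against 5.44% (531 higher and 695 lower). Against empty vector across slides, 0 members were called in MBD-TET1-CDwt (0.115% of all probes) and in MBD-TET1-CDmut (0.0%), with 0 at an unadjusted p under 0.05 in each, against 6.6% and 2.68% of all probes. The limma test of the difference between the within-slide contrasts called 0 members against 0.0444% of all probes, and 1 member had an unadjusted p under 0.05, against 3.73%.

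The size of a change that these arrays leave possible follows from the 95% intervals. Leaving aside the dim TET2 probe described later, the intervals of the other 14 member probes lay between 0.426-fold and 1.75-fold in TET1-CDwt over empty vector and between 0.418-fold and 1.97-fold in MBD-TET1-CDwt over MBD-TET1-CDmut. For active minus inactive they lay between 0.514-fold and 1.58-fold. The median difference of the 15 members was -0.04 in TET1-CDwt minus empty vector, beside -0.03 over all probes. In MBD-TET1-CDwt minus MBD-TET1-CDmut it was -0.04 beside 0.01, and for active minus inactive -0.03 beside -0.02. In both fusions minus empty vector the members lay further down, at -0.13 with the active domain and -0.12 with the mutant, beside -0.02 over all probes in each.

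Among the TET dioxygenases, TET1 was measured by 2 probes of the same transcript (NM_030625). The brighter, A_33_P3295550, read 2.62 and 2.94 in empty vector #1 and #2, 2.74 and 2.71 in TET1-CDwt #2 and #5, 2.78 and 2.81 in MBD-TET1-CDwt #3 and #10, and 2.85 and 2.61 in MBD-TET1-CDmut #9 and #10. The groups overlapped in every comparison made, and the 2 empty vector clones differed by almost as much as the whole range of 0.33. The difference was -0.06 in TET1-CDwt minus empty vector (SE 0.19, limma adjusted p = 0.9999) and 0.06 in MBD-TET1-CDwt minus MBD-TET1-CDmut (SE 0.19, adjusted p = 0.962). Active minus inactive was 0.00, with an interval from 0.805-fold to 1.25-fold. This probe did not read higher with any of the 3 constructs beyond the spread between clones. Whether either TET1 probe lies within the domain that the constructs carry was not determined here.

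The dimmer TET1 probe, A_23_P322756, did separate the groups. It read -1.28 and -1.20 in the empty vector clones, -1.03 and -1.31 in TET1-CDwt, -1.55 and -1.44 in MBD-TET1-CDwt, and -0.70 and -0.91 in MBD-TET1-CDmut. The order of the group means was MBD-TET1-CDmut (-0.80 ± 0.15, SD, n = 2), TET1-CDwt (-1.17 ± 0.20), empty vector (-1.24 ± 0.06) and MBD-TET1-CDwt (-1.49 ± 0.08), and TET1-CDwt and empty vector overlapped. MBD-TET1-CDwt was 0.69 below MBD-TET1-CDmut (SE 0.19, a 1.61-fold difference, limma unadjusted p = 0.0077, adjusted p = 0.554), and this was the lowest adjusted p of any member in any comparison. The 95% interval ran from 0.457-fold to 0.841-fold. In TET1-CDwt minus empty vector the difference was 0.07 (SE 0.19), and the difference between the within-slide contrasts was -0.76 (SE 0.26, unadjusted p = 0.0233, adjusted p = 0.9998).
The gap lay on both sides of empty vector: MBD-TET1-CDmut stood 0.44 above it (SE 0.19, unadjusted p = 0.051) and MBD-TET1-CDwt stood at -0.25 (SE 0.19, unadjusted p = 0.218). Without MBD-TET1-CDmut #9, MBD-TET1-CDwt minus MBD-TET1-CDmut was -0.59 (unadjusted p = 0.0595). The dimmer minus the brighter TET1 probe was -4.33 and -4.25 in MBD-TET1-CDwt and -3.55 and -3.52 in MBD-TET1-CDmut. The other 4 clones lay between -4.14 and -3.76. For TDG the same quantity was also lowest in MBD-TET1-CDwt (-5.31 and -5.52) and highest in MBD-TET1-CDmut (-4.93 and -4.87). For SMUG1 it was highest in MBD-TET1-CDmut (-1.57 and -2.10), while MBD-TET1-CDwt (-2.20 and -2.34) overlapped the remaining clones. The pattern was thus not particular to TET1, and its cause was not tested.

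MBD2, the methyl-CpG-binding protein from which the fusions take their domain, is no member and was read for the same reason as TET1. Its bright probe A_23_P15864 read 1.36 and 1.25 in empty vector, 1.56 and 1.32 in TET1-CDwt, 1.65 and 1.25 in MBD-TET1-CDwt, and 1.35 and 1.3 in MBD-TET1-CDmut. All groups overlapped, and the fusions differed from empty vector by 0.14 (SE 0.20) and 0.02 (SE 0.20). The dim probe A_24_P119201 ranged over 2.63 and its clones within TET1-CDwt lay at -4.98 and -2.57. Neither MBD2 probe was called in any comparison.

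**Figure D2:**
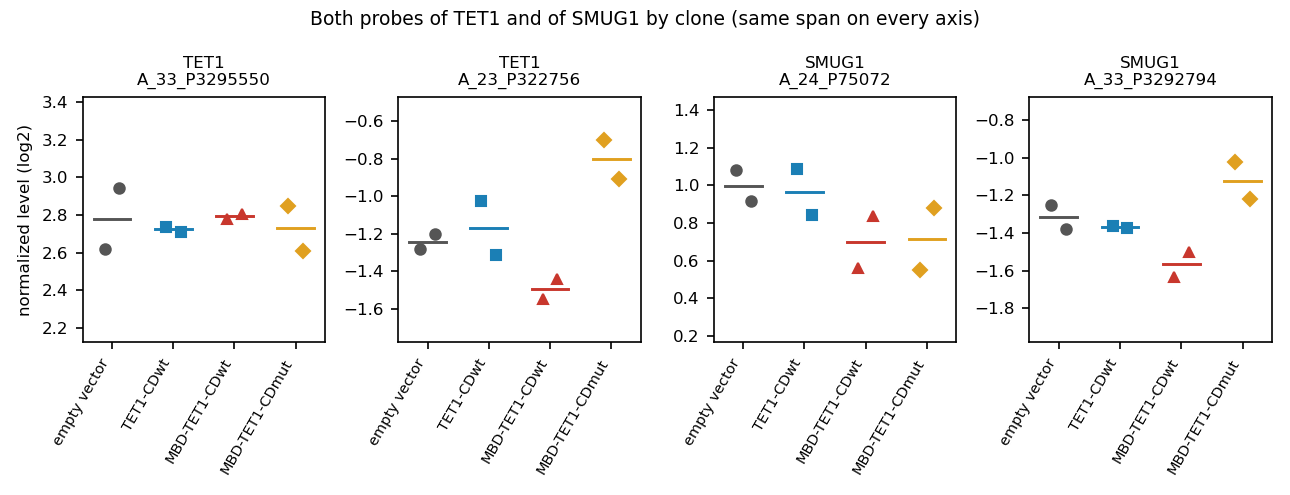
Normalized level (y axis, log2, the same span of 1.3 in each panel) of the 2 probes of TET1 and the 2 probes of SMUG1 in each clone (points), with group means as lines. The dimmer probe of each gene stands lowest in MBD-TET1-CDwt and highest in MBD-TET1-CDmut, while the brighter probe does not separate these groups.

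TET2, which oxidizes methylcytosine like TET1 but lacks a CpG-binding CXXC domain of its own, was measured by 3 probes of NM_001127208 and 1 of NM_017628. The brightest, A_23_P350187, read -1.15 and -1.19 in empty vector, -1.04 and -1.19 in TET1-CDwt, -1.15 and -1.09 in MBD-TET1-CDwt, and -1.32 and -1.0 in MBD-TET1-CDmut. All groups overlapped, and active minus inactive was 0.05 (SE 0.13), with an interval from 0.835-fold to 1.28-fold. The probes A_33_P3238685 and A_33_P3238690 ranged over 0.60 each, also with overlap in every comparison made, and their active minus inactive differences were -0.01 (SE 0.15) and 0.01 (SE 0.18).
The probe A_33_P3266719 was near the floor of detection and was well above background on both empty vector and both TET1-CDwt arrays, on 1 of 2 MBD-TET1-CDwt arrays and on 0 of 2 MBD-TET1-CDmut arrays. Its levels were -5.61 and -5.34 in empty vector, -5.38 and -3.48 in TET1-CDwt, -7.46 and -5.31 in MBD-TET1-CDwt, and -5.68 and -5.96 in MBD-TET1-CDmut. TET1-CDwt #5 stood above all other clones and MBD-TET1-CDwt #3 below them, and the pooled standard deviation between clones was 1.02. As measured, MBD-TET1-CDmut minus empty vector was -0.34 (SE 0.79, limma adjusted p = 0.9998). The 95% interval ran from 0.214-fold to 2.91-fold. This probe entered the test only through the empty vector and TET1-CDwt arrays, so its detection there is not a result. The detection floor was -5.82 and -6.01 on the empty vector arrays and -5.53 on both MBD-TET1-CDmut arrays. Empty vector #1 (-5.61) counted as detected and MBD-TET1-CDmut #9 (-5.68) did not. Slide, floor and construct cannot be told apart in this detection pattern. The 95% interval of TET1-CDwt over empty vector on this probe reached from 0.56-fold to 7.59-fold, so it limits little.

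OGT, the sugar transferase that binds TET proteins, had 1 probe. Its levels were 3.05 and 3.37 in empty vector, 2.84 and 3.11 in TET1-CDwt, 3.33 and 2.89 in MBD-TET1-CDwt, and 3.03 and 2.83 in MBD-TET1-CDmut. The MBD-TET1-CDmut clones lay below both empty vector clones and the other groups overlapped. MBD-TET1-CDmut minus empty vector was -0.28 (SE 0.23, limma adjusted p = 0.9998), and active minus inactive was -0.03 (SE 0.16, adjusted p = 0.992).

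The isocitrate dehydrogenases differed in how much their clones varied. IDH1 read 0.99 and 1.05 in empty vector, 1.09 and 1.21 in TET1-CDwt, 1.69 and 1.17 in MBD-TET1-CDwt, and 0.98 and 0.94 in MBD-TET1-CDmut. Both groups with active domain stood above their inactive partner, with MBD-TET1-CDwt #3 the highest clone. MBD-TET1-CDwt minus MBD-TET1-CDmut was 0.47 (SE 0.21, limma unadjusted p = 0.063, adjusted p = 0.742), TET1-CDwt minus empty vector was 0.13 (SE 0.21), and active minus inactive was 0.30 (SE 0.15, unadjusted p = 0.0883). Without MBD-TET1-CDwt #10 the last of these was 0.43 (limma unadjusted p = 0.0105), and without MBD-TET1-CDwt #3 it had its lowest value, 0.17, so the size of the IDH1 difference rests on clone #3.
IDH2, the mitochondrial enzyme, read 1.88 and 1.63 in empty vector, 1.98 and 1.0 in TET1-CDwt, 0.72 and 1.59 in MBD-TET1-CDwt, and 1.22 and 1.67 in MBD-TET1-CDmut. TET1-CDwt #5 and MBD-TET1-CDwt #3 were the lowest clones, each well below the other clone of its group. Active minus inactive was -0.28 (SE 0.29), with an interval from 0.514-fold to 1.33-fold.

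Of the repair genes, TDG excises formyl- and carboxylcytosine and is the glycosylase that active demethylation depends on. Its bright probe A_23_P204579 read 3.73 and 3.48 in empty vector, 3.42 and 3.76 in TET1-CDwt, 3.95 and 3.46 in MBD-TET1-CDwt, and 3.5 and 3.47 in MBD-TET1-CDmut. The groups overlapped in every comparison. TET1-CDwt minus empty vector was -0.01 (SE 0.23), MBD-TET1-CDwt minus MBD-TET1-CDmut was 0.22 (SE 0.23, limma adjusted p = 0.896), and the interval of active minus inactive ran from 0.82-fold to 1.41-fold. The groups also overlapped in every comparison made on the dim TDG probe A_33_P3357445, with active minus inactive at -0.13 (SE 0.19), opposite in sign to the bright probe at 0.10 (SE 0.16).

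SMUG1, a glycosylase that removes uracil and hydroxymethyluracil, had 2 probes of NM_014311. The brighter, A_24_P75072, read 1.08 and 0.92 in empty vector, 1.09 and 0.84 in TET1-CDwt, 0.56 and 0.84 in MBD-TET1-CDwt, and 0.55 and 0.88 in MBD-TET1-CDmut. Both fusions lay below empty vector and did not differ from each other beyond their spread, at -0.01 (SE 0.21, interval from 0.703-fold to 1.4-fold). The dimmer, A_33_P3292794, read -1.25 and -1.38 in empty vector, -1.36 and -1.37 in TET1-CDwt, -1.64 and -1.5 in MBD-TET1-CDwt, and -1.02 and -1.22 in MBD-TET1-CDmut. On this probe MBD-TET1-CDwt was 0.45 below MBD-TET1-CDmut (SE 0.17, a 1.36-fold difference, limma unadjusted p = 0.036, adjusted p = 0.704), which is the second member value at an unadjusted p under 0.05. Its groups had the same order at the ends as the dim TET1 probe, with MBD-TET1-CDmut highest and MBD-TET1-CDwt lowest. The group means of the dim TDG probe had these ends too (-1.42 and -1.71), with groups that overlapped. The bright TDG probe (3.48 and 3.70) and IDH1 (0.96 and 1.43) had the reverse order. The unadjusted p was under 0.05 in 7 of 17 alternative settings, and without MBD-TET1-CDmut #9 the difference was -0.35 (unadjusted p = 0.191).

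APEX1, the endonuclease that cuts the backbone at the site a glycosylase leaves, read 1.38 and 0.87 in empty vector, 1.11 and 0.66 in TET1-CDwt, 0.60 and 0.73 in MBD-TET1-CDwt, and 0.88 and 1.10 in MBD-TET1-CDmut. MBD-TET1-CDwt lay below both empty vector and MBD-TET1-CDmut, and empty vector #1 was the highest clone. The differences were -0.45 (SE 0.25, limma adjusted p = 0.829) and -0.32 (SE 0.25, adjusted p = 0.863), and active minus inactive was -0.28 (SE 0.18). The size varied with the clones used: MBD-TET1-CDwt minus empty vector was -0.20 without #1 (limma unadjusted p = 0.496) and -0.71 without #2 (unadjusted p = 0.0454), and active minus inactive was -0.15 without empty vector #1 and -0.16 without TET1-CDwt #5.
XRCC1, the scaffold of the late repair steps, was lower than empty vector in all other clones: it read 4.40 and 4.15 in empty vector, 3.97 and 3.75 in TET1-CDwt, 4.02 and 3.94 in MBD-TET1-CDwt, and 3.93 and 4.10 in MBD-TET1-CDmut. The difference from empty vector was -0.42 in TET1-CDwt (SE 0.19, limma unadjusted p = 0.0613), -0.30 in MBD-TET1-CDwt (SE 0.19, unadjusted p = 0.149) and -0.26 in MBD-TET1-CDmut (SE 0.19, unadjusted p = 0.203). Without empty vector #1 these differences were -0.29, -0.18 and -0.14. The comparisons share the empty vector clones, and the fusions did not differ from each other beyond their spread, at -0.04 (SE 0.19, interval from 0.716-fold to 1.32-fold).

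Groups of 2 clones that do not overlap were common on these arrays. They were found for 2 of 15 members in TET1-CDwt against empty vector (1 higher, 1 lower), where 27.7% of all probes did so, and for 4 of 15 in MBD-TET1-CDwt against MBD-TET1-CDmut (1 higher, 3 lower), where 36.0% did. Against empty vector across slides, 7 of 15 members did not overlap in MBD-TET1-CDwt (1 higher, 6 lower) and 7 of 15 in MBD-TET1-CDmut (2 higher, 5 lower), against 30.8% and 34.7% of all probes. These cross-slide comparisons share the empty vector clones, and slide and construct cannot be told apart in them. The mean of slide 2 minus that of slide 1 had a median of -0.004 over the members and -0.007 over all probes.

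Other genes of the pathway were read in the same fit from 65 genes in 6 lists, of which 59 genes had a tested probe (81 probes). None was called in any comparison (limma, 0 of 59 genes), with 1 of 81 probes at an unadjusted p under 0.05 in TET1-CDwt minus empty vector, 4 (4.94%) in MBD-TET1-CDwt minus MBD-TET1-CDmut and 1 in active minus inactive, against the 2.5%, 6.84% and 5.44% of all probes given above. Against empty vector across slides, 1 of 81 was so in each fusion. For MBD-TET1-CDwt it was GADD45G, a stress gene named after its value was seen, at -1.09 (SE 0.43, limma adjusted p = 0.746). Its other probe was at -0.91 (SE 0.49). In MBD-TET1-CDmut minus empty vector these probes were at -0.41 (SE 0.43) and -0.46 (SE 0.49), and slide and construct cannot be told apart in these values.
Of the readers of oxidized methylcytosine, 6 of 6 were tested. SALL4, a zinc finger factor of embryonic cells, read -0.53 and -1.21 in empty vector, -1.65 and -1.90 in TET1-CDwt, -1.42 and -0.87 in MBD-TET1-CDwt, and -2.31 and -1.77 in MBD-TET1-CDmut. It was 0.90 lower in TET1-CDwt than in empty vector (SE 0.32, limma adjusted p = 0.9999) and was higher by 0.90 in the active than in the mutant fusion (SE 0.32, adjusted p = 0.676), so its 2 within-slide differences had opposite signs. Without empty vector #1 the first of them was -0.57 (limma unadjusted p = 0.165). SALL1 differed by 0.23 in active minus inactive (SE 0.12). UHRF2, a ubiquitin ligase that binds hydroxymethylcytosine, was at -0.53 in MBD-TET1-CDwt minus MBD-TET1-CDmut on one probe (SE 0.22, limma adjusted p = 0.725) and at -0.25 on the other (SE 0.21).

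Of the 13 genes of later base excision repair, 12 were tested, and APLF was well above background on no array. PARG, which removes poly(ADP-ribose) after repair, read -2.40 and -2.30 in empty vector, -2.56 and -2.68 in TET1-CDwt, -2.60 and -2.62 in MBD-TET1-CDwt, and -2.14 and -2.09 in MBD-TET1-CDmut on probe A_33_P3314212. The clones with active domain read lower on both slides, and active minus inactive was -0.38 (SE 0.11, limma unadjusted p = 0.0125, adjusted p = 0.825). The other PARG probe, A_23_P97810, gave -0.09 (SE 0.22) for the same comparison. Among 9 of 9 other DNA glycosylases tested, NTHL1, which removes oxidized pyrimidines, was at 0.39 in active minus inactive (SE 0.18, limma adjusted p = 0.918), and the median of the list was -0.12.

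Of the TET partners and modifiers, 11 of 11 were tested. CXXC4, a CpG-binding protein linked to TET2, was at 0.59 in active minus inactive (SE 0.29), PROSER1, a partner of OGT and TET2, was at -0.27 on a dim probe (SE 0.14) and at -0.01 on a brighter one (SE 0.14), and the stress gene GADD45B was at 1.04 in TET1-CDwt minus empty vector (SE 0.69), with TET1-CDwt #5 at 2.82 and TET1-CDwt #2 at 1.06. The 16 of 16 genes that make or remove oxoglutarate and its rival acids included GLUD1 and GLUD2, near-identical glutamate dehydrogenases whose probes may share signal, at -0.32 (SE 0.16) and -0.42 (SE 0.17) in MBD-TET1-CDwt minus MBD-TET1-CDmut. The transaminase GOT1 and the succinate dehydrogenase subunit SDHC were at 0.33 (SE 0.19) and -0.28 (SE 0.19) in TET1-CDwt minus empty vector, with the other SDHC probes at -0.18 (SE 0.24) and -0.16 (SE 0.23). Of 10 cytosine deaminases, 5 were tested, none of them at an unadjusted p under 0.05 in any comparison, and APOBEC1 and APOBEC3A were well above background on no array.

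The genes whose probes moved most like the brightest probe of TET1 over the 8 arrays, among 13383 named genes with a probe on all arrays, were LINC01000, MROH7, UNC5CL, VAV2 and ZYG11A, with Pearson r from 0.924 down to 0.89. For TET2 they were VPS35L, QTRT1, TOMM20, IAH1 and CD151, with r from 0.93 down to 0.909. These are descriptions over 8 arrays that share slides and scaling, for TET probes whose whole range was only 0.33.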

How the data were processed

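The authors hybridized Cy-3 labeled cRNA of 8 clones, and the deposited values are the spot intensity after Agilent Feature Extraction (9.5.1 per the labels, 10.7.3.1 per the file headers) with background subtraction and no scaling between arrays. The deposited series table equals these values in all 44495 rows. Control spots and 213 to 269 outlier spots per array were left out, log2 intensities were centered on the array's 75th percentile (intensity 328 to 527), spots of a probe were averaged, and a probe was well above background if over 50% of its spots were. Between 63.2% and 68.2% of probes were so on an array, no spot was saturated, and the detection floor lay between -6.01 and -5.51. The number of arrays limits the precision. Probes were named through RefSeq accessions (GRCh38.p14, names only).

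limma 3.58.1 (R 4.3.3) was fitted with 4 group means to 8 arrays (residual df 4), two-sided, with Benjamini-Hochberg adjustment over 22530 probes, after a test on simulated data. Python 3.11.15 with pandas 2.3.3 and scipy 1.17.1 did the rest. The members and lists were chosen with earlier results of these data known. Named are all members, MBD2, the 6 pathway genes with the lowest unadjusted p in each of the TET1-CDwt, fusion and active minus inactive comparisons, and the 5 genes most correlated with TET1 and TET2; others were named after their values were seen. Alternatives were quantile and median scaling, filters on dim probes, priors, array weights, fewer groups, other choices of probe and each clone left out. Normexp on median signals (offset 50, leaving out spots below their background, since mean signals were not used here) and a percentile over spots were chosen after seeing the data. A few genes are left unreported, and protein sequences were not analysed here.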

Additional observations from a re-analysis of the deposited data

Results flagged for a closer look

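For 2 probes named above, the difference between the within-slide contrasts, which is MBD-TET1-CDwt minus MBD-TET1-CDmut less TET1-CDwt minus empty vector, had an unadjusted p under 0.05 in limma, as 3.73% of all probes did, and neither of them passed adjustment. TET1 on probe A_23_P322756 gave -0.76 (unadjusted p = 0.0233, adjusted p = 0.9998), with the brighter TET1 probe A_33_P3295550 at 0.12 (SE 0.27). SALL4 gave 1.80 (unadjusted p = 0.0058, adjusted p = 0.938). Slide differs between these contrasts as well as the MBD, and their parts cannot be told apart.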

How the results depend on the processing

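No member and no pathway gene was called after adjustment in any comparison under any of the alternatives run. Over these alternatives the lowest adjusted p of a member was 0.152 in MBD-TET1-CDwt minus MBD-TET1-CDmut (limma). Of 3718 recomputed values of single probes, 3594 stayed on the same side of an unadjusted p of 0.05, 51 rose above it, 64 fell below it, 9 moved by more than the spread between clones when probes of a gene were averaged, and 0 changed sign past it. Members at an unadjusted p under 0.05 numbered from 0 to 3 in MBD-TET1-CDwt minus MBD-TET1-CDmut and in the difference between contrasts. In MBD-TET1-CDwt minus empty vector, the difference of TET1 A_23_P322756 ranged from -0.31 to -0.15. In MBD-TET1-CDwt minus MBD-TET1-CDmut it ranged from -0.79 to -0.49 and had an unadjusted p under 0.05 (limma) in 16 of 17 alternatives. Its difference between contrasts ranged from -0.90 to -0.53 (13 of 16), and was weaker without empty vector #1 (-0.72), TET1-CDwt #2 (-0.62) or MBD-TET1-CDmut #9 (-0.66). Averaging its 2 probes gave -0.31 for TET1 in MBD-TET1-CDwt minus MBD-TET1-CDmut. No paired analysis was possible because the clone numbers do not pair the groups.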
